A study of Homo sapiens with 6 samples.

Results

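The GALNT genes encode the polypeptide N-acetylgalactosaminyltransferases, enzymes of the Golgi that begin mucin-type O-glycosylation. Of the 10 genes examined, GALNT12 was chosen by its strong fall in these same samples, and 9 paralogs (GALNT1, GALNT2, GALNT3, GALNT6, GALNT7, GALNT10, GALNT11, GALNT14 and GALNT18) were selected for comparison with it. GALNT3 was not listed in the expression matrix of 14930 genes, so 9 of the 10 could be described. GALNT6 stayed under the filter on low values, which left 8 genes among the 9671 tested and 7 that can be read as a test, since the values that picked GALNT12 cannot also be evidence for its fall.

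RNA-Seq was performed in OVCAR8 cells, an established high-grade serous ovarian cancer line, in 3 groups of 2 samples. Control samples (Ctrl) were compared with samples treated with DZNep (5 μM in the methods, although the sample labels give the unit as mM), an inhibitor of S-adenosylhomocysteine hydrolase that lowers cellular methylation and the EZH2 protein, and with samples in which doxycycline (1 μg/mL in the methods, mg/mL in the labels) induced a hairpin against EZH2 (shEZH2), each for 72 hours. EZH2 is the methyltransferase of Polycomb repressive complex 2, which places the repressive H3K27me3 mark on histones. The hairpin sat in a Tet-On vector, and a single hairpin was used. The methods name OVCAR8 cells and the derived hairpin line OVCAR8-shEZH2#2, with DMSO among the treatments. The sources used here do not say whether the controls carried this vector or received DMSO or doxycycline. The effects of the hairpin line, of doxycycline and of EZH2 silencing therefore cannot be told apart. Nothing states that the samples came from separate cultures, and the p-values then measure only the spread between these samples.

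In mucin-type O-glycosylation, a GALNT enzyme transfers N-acetylgalactosamine from UDP-GalNAc to serine or threonine, and other enzymes extend this first sugar into cores that are capped with sialic acid or fucose. The isoforms differ in what they accept. GALNT1 and GALNT2 are broadly expressed and act on bare peptides, whereas GALNT7 and GALNT10 prefer peptides that already carry GalNAc, as GALNT12 also can. In epithelial cancers, incompletely extended O-glycans are common on mucins and other surface proteins.

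The promoters of the 3 members on which the results turn are shown first, as the window from 250 bases before to 50 bases after the RefSeq transcription start (GRCh38.p14). GALNT12 had the deepest fall of the members, GALNT10 rose with DZNep, and GALNT2 fell with DZNep. The GALNT12 window is chr9:98807420-98807719, that of GALNT10 chr5:154190483-154190782 and that of GALNT2 chr1:230066988-230067287, all on the plus strand, and the start used for GALNT2 lies inside the GENCODE gene rather than at its outer end. Capitals mark GC boxes, the letters GGGCGG on either strand, which may overlap one another.
GALNT12: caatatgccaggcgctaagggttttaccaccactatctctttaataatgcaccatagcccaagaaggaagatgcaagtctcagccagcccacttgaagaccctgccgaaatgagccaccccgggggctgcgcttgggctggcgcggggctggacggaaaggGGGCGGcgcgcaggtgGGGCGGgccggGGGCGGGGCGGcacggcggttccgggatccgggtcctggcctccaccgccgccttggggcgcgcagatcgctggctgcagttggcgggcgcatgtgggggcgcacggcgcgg
GALNT10: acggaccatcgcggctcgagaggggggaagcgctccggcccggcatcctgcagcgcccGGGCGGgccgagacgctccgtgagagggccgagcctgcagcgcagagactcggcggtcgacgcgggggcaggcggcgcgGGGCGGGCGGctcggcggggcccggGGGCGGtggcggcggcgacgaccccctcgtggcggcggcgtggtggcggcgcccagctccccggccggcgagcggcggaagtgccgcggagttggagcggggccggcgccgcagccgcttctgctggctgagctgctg
GALNT2: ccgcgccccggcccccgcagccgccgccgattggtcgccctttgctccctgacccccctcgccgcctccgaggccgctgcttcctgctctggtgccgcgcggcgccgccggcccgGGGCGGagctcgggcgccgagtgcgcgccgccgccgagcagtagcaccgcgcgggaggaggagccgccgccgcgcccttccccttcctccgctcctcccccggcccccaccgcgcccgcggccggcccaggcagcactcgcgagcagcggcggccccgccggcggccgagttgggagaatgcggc
The GALNT12 window held 4 GC boxes and 29 CpG dinucleotides at 68.7% GC. The GALNT10 window also held 4 GC boxes, with 51 CpG at 81.0% GC, and the GALNT2 window held 1 GC box, with 51 CpG at 82.0% GC. Among the other matched members, a GALNT1 window held 5 GC boxes and a GALNT14 window held 3. Over 35116 RefSeq promoter windows of this length, 45.0% held at least 1 GC box and 9.06% at least 4, and the median window held 14 CpG. Promoter entries were matched for 8 of the 10 genes, and GALNT6 and GALNT18 were not matched. None of the matched windows held the letters TATAAA or CACGTG on either strand, which 11.5% and 7.26% of all windows hold. These matches describe letters and not binding.

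Expression is given as deposited, in whole numbers scaled to a common total, with sample totals between 999956 and 1000068. These are not read counts, so the depth is unknown, and a level of 1 can stand for any value that rounds to it. Whether the values are per length is not stated, so levels of different genes are not compared. The SD of the log2 difference between replicates over the tested genes was 0.428 in Ctrl, 0.447 in DZNep and 0.141 in shEZH2, so the shEZH2 samples were far closer to each other. EZH2 itself was 36 and 42 in the controls, 26 in both DZNep samples and 18 in both shEZH2 samples. EZH2 fell in both comparisons with control, by 0.63 ± 0.18 on the log2 scale (SE, limma adjusted p = 0.025) with DZNep and by 1.12 ± 0.18 (limma adjusted p = 0.016) with shEZH2. Of 10 markers of ovarian carcinoma epithelium 9 were listed, with a summed level of 2582 to 3219 in Ctrl, 7409 to 8594 in DZNep and 3555 to 3561 in shEZH2, mostly KRT8 and KRT18. Of the 5 tested, KRT8 and KRT18 were called higher and PAX8 and MSLN lower with DZNep, with a median of -0.08. MSLN was 176 and 150 in the controls and 45 and 36 with DZNep. None of the 5 was called with shEZH2 in limma, with 3 at an unadjusted p under 0.05. Over all tested genes 42.7% were called with DZNep and 8.35% with shEZH2. EPCAM was at 5 to 12 in all samples, while KRT19 was not listed, WT1 was at 1 to 2 and CDH1 at 0 to 8. Of the fibroblast markers 3 of 6 were listed, and COL1A2, COL3A1 and DCN were not. The listed 3 summed to 25 to 28 in Ctrl, 53 to 69 in DZNep and 46 to 53 in shEZH2. Within this sum PDGFRB rose, from 12 and 11 in Ctrl to 56 and 42 in DZNep and 37 and 34 in shEZH2. COL1A1 did not rise, at 13 and 16, 12 and 9, and 16 and 11 in the same order, and LUM was at most 2. Leukocyte markers (2 of 6 listed) and endothelial markers (3 of 5 listed) summed to at most 5 in any sample. The part of these marker differences in the results described here was not tested. In bulk RNA of a cell line, fewer expressing cells and less RNA per cell cannot be told apart.

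GALNT12 lies at chr9:98807670-98850081 on the plus strand (GRCh38, GENCODE v44) and encodes an isoform whose inherited variants have been linked to colorectal cancer. Its deposited value was 23 and 27 in the controls, 1 and 1 with DZNep, and 4 and 4 with shEZH2. The 3 groups did not overlap, and the shEZH2 samples lay between the controls and the DZNep samples. Against the control mean of 25, the DZNep mean was 4%, and rounding alone allows 1.96% to 6.12%, a 16.3-fold to 51.0-fold lower level. The shEZH2 mean was 16% of the control mean, with a rounding range of 13.7% to 18.4%, or 5.44-fold to 7.29-fold lower. The shEZH2 mean was 4 times the DZNep mean as deposited, but rounding allows any ratio from 233% to 900%.

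On the fitted scale, log2(value + 1) after scaling between samples, the GALNT12 difference was -3.75 ± 0.19 (SE, n = 2 per group) with DZNep and -2.42 ± 0.19 with shEZH2, and 1.33 ± 0.19 for shEZH2 minus DZNep. Adding 1 before taking logs shrinks the fall of a gene this low: the DZNep difference was -4.14 with 0.5 added and -2.36 with 5 added. Ordered from the most lowered of 9671 genes, GALNT12 stood at place 18 with DZNep and at place 12 with shEZH2. These values describe the pattern for which GALNT12 was picked and carry no test. GALNT12 passed the filter (10 or more in 2 or more samples) only through its controls. Both comparisons use the same 2 control samples.

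**Figure D1:**
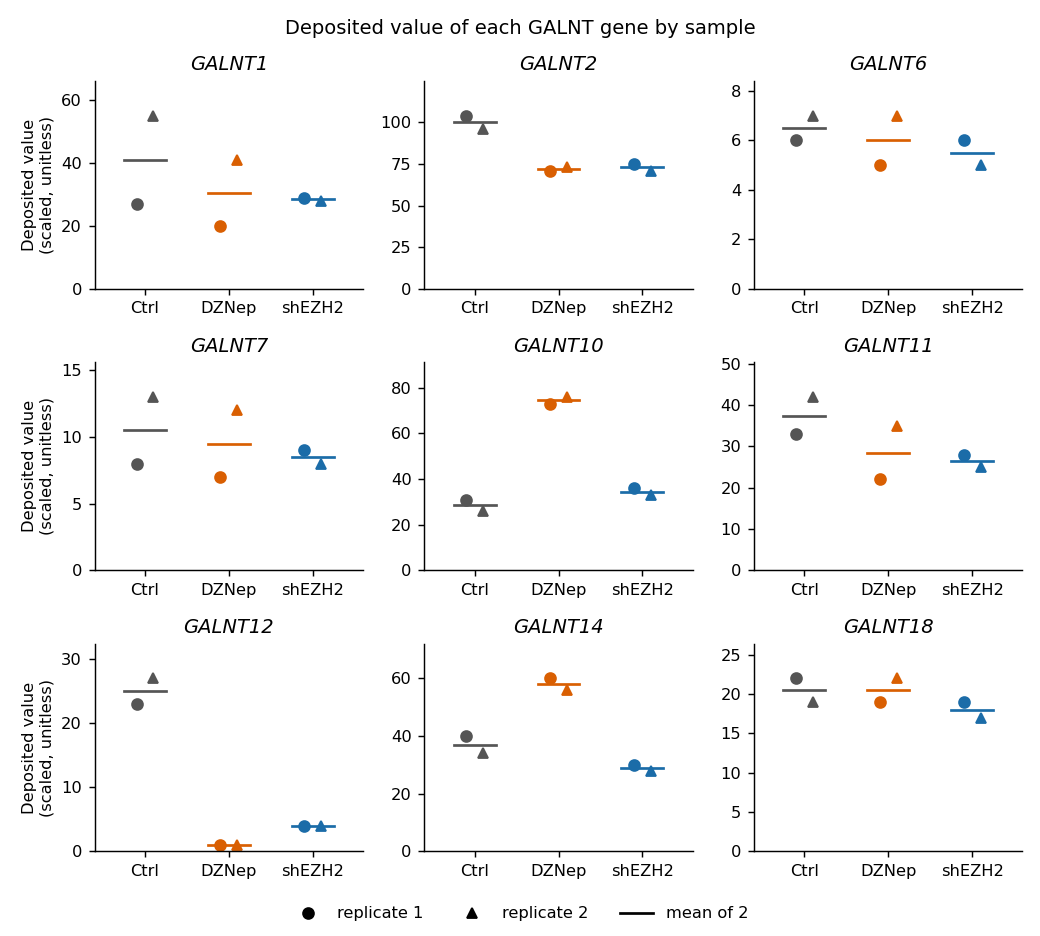
Deposited values (scaled, unitless, linear axis from 0) of the 9 listed GALNT genes in each sample, with circles for replicate 1, triangles for replicate 2 and a bar at the mean of 2 samples. GALNT12 drops from 23 and 27 in Ctrl to 1 in DZNep and 4 in shEZH2, GALNT10 is high in DZNep only, at 73 and 76, and GALNT1 spreads from 27 to 55 between controls.

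DZNep was compared with control to ask which GALNT genes responded to the inhibitor. Among the 7 tested members other than GALNT12, GALNT10 rose, GALNT2 fell and 5 did not pass the test. The 2 called of 7 are to be read against 42.7% of all tested genes called in this comparison, 22.3% higher and 20.4% lower, so a call with DZNep was not particular to the family. The median difference of the 7 was -0.20, with 5 of 7 below 0, against a median of 0.02 and 49.1% below 0 over all tested genes.

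GALNT10 (chr5:154190730-154420984, plus strand), one of the isoforms that prefer partly glycosylated peptides, was 31 and 26 in the controls, 73 and 76 with DZNep, and 36 and 33 with shEZH2. Both DZNep samples were above every other sample. As deposited, the shEZH2 samples lay just above the controls. After scaling they overlapped, at 35.1 and 33.3 with shEZH2 and 33.7 and 25.3 in the controls. GALNT10 rose with DZNep by 1.29 ± 0.20 on the log2 scale (95% CI 0.83 to 1.75, limma adjusted p = 0.0018), in 2 of 2 samples. This call held in 16 of 16 alternative settings, with a difference between 1.09 and 1.49. With shEZH2 the difference was 0.22 ± 0.20 (95% CI -0.24 to 0.68, limma adjusted p = 0.50). GALNT10 shares 121 exon bases with MFAP3 on the same strand, and MFAP3 was 14 and 20 in the controls and 15 and 26 with DZNep.

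GALNT2 (chr1:230057990-230282122, plus strand) is a broadly expressed isoform that acts on apolipoproteins and other secreted proteins. Its values were 104 and 96 in the controls, 71 and 73 with DZNep, and 75 and 71 with shEZH2. All 4 treated samples lay below both controls, and the treated groups overlapped each other. GALNT2 fell by 0.54 ± 0.18 on the log2 scale with DZNep (95% CI -0.94 to -0.13, limma adjusted p = 0.039). With shEZH2 the difference was of like size, -0.50 ± 0.18 (95% CI -0.90 to -0.10), but did not pass (limma adjusted p = 0.11). The DZNep call is near the threshold: the limma adjusted p was 0.16 without Ctrl replicate 1, 0.11 without DZNep replicate 2 and 0.12 without either shEZH2 sample, and GALNT2 passed in 10 of 16 alternative settings.

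GALNT14 (chr2:30910467-31155202, minus strand), whose product glycosylates the death receptors for TRAIL, belongs to the same subfamily as GALNT2. It was 40 and 34 in the controls, 60 and 56 with DZNep, and 30 and 28 with shEZH2. The DZNep samples were above and the shEZH2 samples below both controls, so the groups did not overlap. Neither difference from control passed the test, with 0.57 ± 0.21 (95% CI 0.09 to 1.05, limma adjusted p = 0.059) for DZNep and -0.39 ± 0.21 (95% CI -0.87 to 0.09, limma adjusted p = 0.26) for shEZH2. The DZNep difference did pass on the values as deposited (0.64, limma adjusted p = 0.020). It was 0.76 without Ctrl replicate 1 and 0.74 without DZNep replicate 2. It was 0.38 without Ctrl replicate 2 and 0.39 without DZNep replicate 1. Same-numbered samples rose alike: after scaling, replicate 1 was 43.5 in Ctrl and 64.2 in DZNep, and replicate 2 was 33.1 and 50.2. A fit that allowed for replicate number called this rise (limma adjusted p = 0.0095), although the labels do not state pairing. That fit gave shEZH2 the same replicate effect, which its samples did not share.

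GALNT11 (chr7:152025674-152122340, plus strand), an isoform that can glycosylate NOTCH1, was 33 and 42 in the controls, 22 and 35 with DZNep, and 28 and 25 with shEZH2. As deposited, 1 DZNep sample lay between the controls, and after scaling all 4 treated samples were below both. The differences of -0.48 ± 0.20 with DZNep (95% CI -0.95 to -0.01, limma adjusted p = 0.091) and -0.53 ± 0.20 with shEZH2 (95% CI -0.998 to -0.06, limma adjusted p = 0.14) did not pass. The DZNep difference was -0.68 without DZNep replicate 2 (limma adjusted p = 0.033), -0.28 without DZNep replicate 1 (0.34) and -0.39 without Ctrl replicate 2 (0.27).

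GALNT1 (chr18:35581117-35711834, plus strand), a broadly expressed isoform that acts on bare peptides, was 27 and 55 in the controls, 20 and 41 with DZNep, and 29 and 28 with shEZH2. As deposited, the range of the controls held every treated sample except the lower DZNep sample. After scaling, both shEZH2 samples (28.3) lay just below the lower control (29.4). Its differences were -0.49 ± 0.33 with DZNep (95% CI -1.25 to 0.28, limma adjusted p = 0.27) and -0.48 ± 0.33 with shEZH2 (95% CI -1.24 to 0.29, limma adjusted p = 0.38), intervals that leave room for a fall of more than 1 on the log2 scale. The DZNep difference was -0.91 without Ctrl replicate 1 and -0.86 without DZNep replicate 2. It was -0.063 without Ctrl replicate 2 and -0.11 without DZNep replicate 1. Same-numbered samples fell alike, however. After scaling, replicate 1 was 29.4 in Ctrl and 21.4 in DZNep, and replicate 2 was 53.5 and 36.8. A fit that allowed for replicate number called this fall (limma adjusted p = 0.039), although the labels do not state pairing. That fit gave shEZH2 the same replicate effect, which its samples did not share. Over the tested genes their deviations correlated at -0.02 with Ctrl and -0.04 with DZNep. The leave-out values alone do not show that the fall rests on single samples, and whether it does was not tested.

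GALNT7 and GALNT18 did not pass the test in any comparison, and GALNT6 was not tested. GALNT7 (chr4:173168811-173323967, plus strand), a glycopeptide-preferring isoform like GALNT10, was 8 and 13 in the controls, 7 and 12 with DZNep, and 9 and 8 with shEZH2, and passed the filter only through replicate 2 of Ctrl and of DZNep. Its DZNep difference was -0.20 ± 0.25 (95% CI -0.79 to 0.38, limma adjusted p = 0.54), and its shEZH2 difference was -0.29 ± 0.25 (limma adjusted p = 0.49). GALNT18 (chr11:11270877-11622005, minus strand), from a subfamily for which little transferase activity has been found, was 22 and 19 in the controls, 19 and 22 with DZNep, and 19 and 17 with shEZH2. The differences of GALNT18 were -0.07 ± 0.20 with DZNep (95% CI -0.53 to 0.39, limma adjusted p = 0.80) and -0.23 ± 0.20 with shEZH2 (95% CI -0.69 to 0.23, limma adjusted p = 0.49). GALNT6 (chr12:51351247-51392867, minus strand), the close paralog of GALNT3, was 6 and 7 in the controls, 5 and 7 with DZNep, and 6 and 5 with shEZH2, too low for the filter. GALNT6 shares 392 exon bases with SLC4A8 on the opposite strand.

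**Figure D2:**
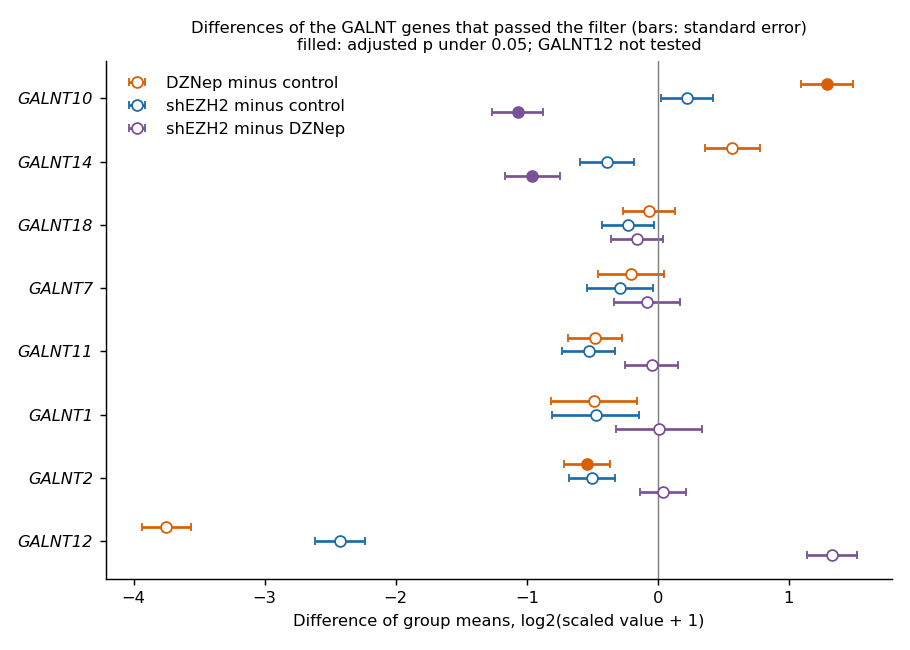
Differences of group means (log2 of the scaled value + 1, bars show 1 SE) for the 8 GALNT genes that passed the filter in 3 comparisons, filled where the adjusted p was under 0.05. GALNT12 lies far to the left of the other members with DZNep and shEZH2 and is drawn without a test, and GALNT10 and GALNT14 separate shEZH2 from DZNep.

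shEZH2 was compared with control to ask which of the genes differed where the hairpin against EZH2 was induced. None of the 7 passed the test in limma, with 2 (GALNT2 and GALNT11) at an unadjusted p under 0.05. Over all tested genes 8.35% were called in this comparison, 3.83% higher and 4.53% lower. The median difference of the 7 was -0.39, with 6 of 7 below 0 and GALNT10 above it, against a median of -0.01 and 50.9% below 0 over all tested genes. The 7 differences lay between -0.53 and 0.22.

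The direct comparison of shEZH2 with DZNep asked whether the groups differed. The sources do not say whether both came from the same line. GALNT10 and GALNT14 were lower with shEZH2 than with DZNep, 2 of 7, where 9.43% of all tested genes were called, 4.87% higher and 4.56% lower. The difference was -1.07 ± 0.20 for GALNT10 (95% CI -1.53 to -0.61, limma adjusted p = 0.020) and -0.96 ± 0.21 for GALNT14 (95% CI -1.44 to -0.47, limma adjusted p = 0.032). GALNT2 differed by 0.04 ± 0.18 (95% CI -0.37 to 0.44, limma adjusted p = 0.92), GALNT11 by -0.05 ± 0.20, GALNT18 by -0.16 ± 0.20, GALNT7 by -0.08 ± 0.25 and GALNT1 by 0.01 ± 0.33. Both calls were lost when either shEZH2 sample was left out (limma adjusted p = 0.17 and 0.20 for GALNT10, 0.25 and 0.26 for GALNT14) or when the pair was averaged and counted as 1 sample (0.20 and 0.26). That of GALNT14 was also lost without DZNep replicate 1 (-0.78, limma adjusted p = 0.083).

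Outside the 10 genes, 3 more of the family were listed. GALNT16, of the same subfamily as GALNT2 and GALNT14, was 20 and 19 in the controls, 8 and 6 with DZNep, and 14 and 13 with shEZH2, in the same order of groups as GALNT12. GALNT16 fell by 1.43 ± 0.24 with DZNep (limma adjusted p = 0.0027), while the -0.55 ± 0.24 with shEZH2 did not pass (limma adjusted p = 0.18). GALNT4, another isoform that acts on glycopeptides, was 4 and 6 in the controls, 9 and 16 with DZNep and 8 and 7 with shEZH2 and was not tested. A readthrough transcript with POC1B overlaps GALNT4. GALNTL6 was at 1 in all control and shEZH2 samples and at 4 in both DZNep samples.

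The genes whose pattern over the 6 samples was most like that of GALNT12, by the root mean square difference of log2 values less the control mean, were PDE9A (0.17), RHPN1 (0.27), MGMT (0.29), APCDD1L (0.31) and FADS2 (0.31). PDE9A was 15 and 13 in the controls, 0 and 0 with DZNep, and 2 and 2 with shEZH2. None of the 5 is a glycosyltransferase. Their likeness is a description, since they were picked by it.

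The remaining steps of the pathway were read from lists of genes. Of 20 genes that make or carry the sugar nucleotides, all were tested. With DZNep 8 fell (GFPT1, GFPT2, UAP1, GALK1, GALK2, GNE, NANS and CMAS) and UAP1L1 rose, with a median of -0.42, where 20.4% of all tested genes were called lower and 22.3% higher. GFPT2, one of the enzymes for the first step from fructose phosphate to UDP-GlcNAc, was 31 in both controls, 15 in both DZNep samples, and 14 and 10 with shEZH2, and fell by 1.07 ± 0.22 (limma adjusted p = 0.0060) and 1.37 ± 0.22 (limma adjusted p = 0.015). GNE, which starts sialic acid synthesis, was 71 and 86 in the controls, 7 and 11 with DZNep, and 28 and 28 with shEZH2, and fell 8.48-fold with DZNep (limma adjusted p = 6.0e-05) and 2.83-fold with shEZH2 (limma adjusted p = 0.0089) on the scale of value + 1. GALK1, galactokinase, was 174 and 148, 34 and 30, and 85 and 86 in the same order of groups, and fell by 2.36 ± 0.21 (limma adjusted p = 0.00021) and 0.95 ± 0.21 (limma adjusted p = 0.035). UAP1L1, a relative of the UDP-GlcNAc pyrophosphorylase UAP1, was 9 and 6, 38 and 30, and 16 and 16, and rose by 1.99 ± 0.28 with DZNep (limma adjusted p = 0.0013). It passed the filter only through treated samples, where it was high. With shEZH2 3 of 20 fell (GFPT2, GALK1 and GNE), with a median of -0.30, where 4.53% of all tested genes were called lower, and 0 of 20 did without either shEZH2 sample or with the pair counted as 1. GALK1, GNE and GFPT1 were higher with shEZH2 than with DZNep, and GNPNAT1 was lower, and with the shEZH2 samples counted as 1 none of these passed.

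Of 31 genes for O-glycan cores and capping, 22 were listed and 14 tested. With DZNep 5 rose (ST3GAL4, ST6GAL1, ST6GALNAC6, FUT4 and CHST2) and ST3GAL3 fell, with a median of 0.27. These 6 of 14 are to be read against 42.7% of all tested genes called. ST6GAL1 (7 and 5 in the controls, 11 and 12 with DZNep, 8 and 8 with shEZH2) and CHST2 passed the filter only through their DZNep samples. Their rises, and their part in this count and median, are therefore not independent of the filter. With shEZH2 1 of 14 was called, against 8.35% of all tested genes. C1GALT1, the enzyme that extends the sugar added by the GALNT enzymes into core 1, was 18 and 33 in the controls, 11 and 23 with DZNep, and 18 and 16 with shEZH2, and did not pass in either comparison (limma adjusted p = 0.13 and 0.29). Its chaperone C1GALT1C1 (COSMC) was 11 and 15, 9 and 17, and 13 and 11 in the same order (limma adjusted p = 0.74 in both). After scaling, C1GALT1 went from 19.6 in Ctrl to 11.8 in DZNep for replicate 1, and from 32.1 to 20.6 for replicate 2. Same-numbered samples thus fell alike, as for GALNT1, which the main fit leaves out. Among the capping enzymes, the sialyltransferase ST3GAL3 was 28 and 27 in the controls, 6 and 4 with DZNep, and 13 and 14 with shEZH2, and fell by 2.33 ± 0.26 with DZNep (limma adjusted p = 0.00048). The sialyltransferases ST3GAL4 and ST6GALNAC6 rose with DZNep by 1.19 ± 0.25 and 0.88 ± 0.25 (limma adjusted p = 0.0065 and 0.023). The sulfotransferase CHST2 was 4 and 4, 25 and 27, and 9 and 8. It was higher in both comparisons, by 2.37 ± 0.19 (limma adjusted p = 0.00014) and 0.88 ± 0.19 (limma adjusted p = 0.033). Because CHST2 entered the test only through its high DZNep samples, these values are a description of its pattern. CHST2 was the 1 gene of this list called with shEZH2, and none was without Ctrl replicate 2, without either shEZH2 sample or with the pair counted as 1. Without Ctrl replicate 2, 2 genes of the list rose with DZNep rather than 5, and without DZNep replicate 1 or either shEZH2 sample 3 did. Without DZNep replicate 2, 3 genes of the list fell with DZNep rather than 1, and without Ctrl replicate 1, 2 did.

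**Figure D3:**
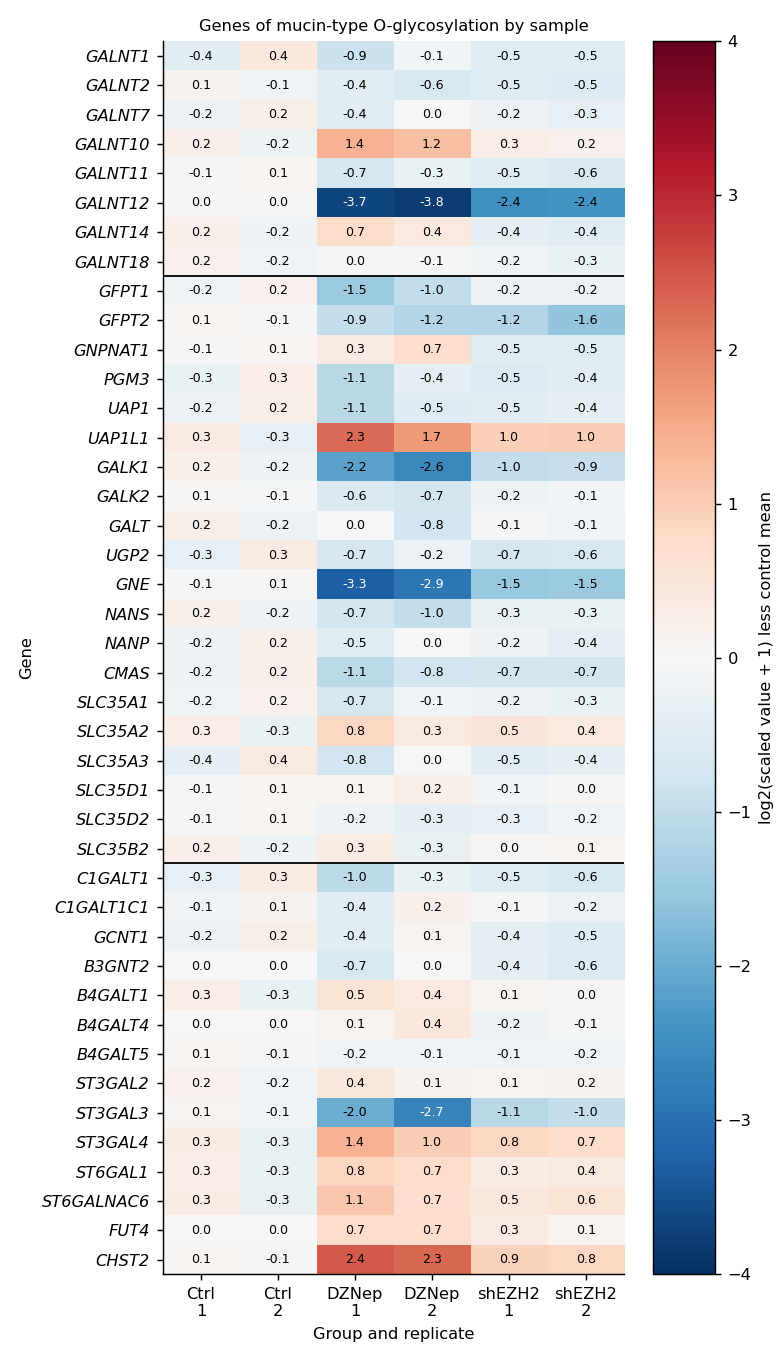
Log2 of the scaled value + 1 less the control mean in each sample for the tested GALNT genes (top), sugar nucleotide supply (middle) and O-glycan cores and capping (bottom), blue for lower and red for higher. GNE, GALK1 and ST3GAL3 share with GALNT12 the order of DZNep lowest and shEZH2 between, whereas CHST2 and UAP1L1 run the other way.

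Possible substrates were also examined. Of 32 mucins and mucin-like proteins 12 were listed and 9 tested, and 3 of the 9 were called with DZNep, against 42.7% of all tested genes. MUC1 was at 1 or 2 in every sample and MUC16 was not listed. With DZNep the sialomucin PODXL (78 and 74 in the controls, 217 and 229 with DZNep, 118 and 99 with shEZH2) rose by 1.47 ± 0.17 (limma adjusted p = 0.00060), CD55 rose by 1.18 ± 0.21 (limma adjusted p = 0.0034) and CD68 fell by 2.04 ± 0.22 (limma adjusted p = 0.00043). CD68 also fell with shEZH2 (70 and 65 in the controls, 32 and 28 with shEZH2, limma adjusted p = 0.021), a call that was lost without either shEZH2 sample or with the pair counted as 1. Of 9 tested proteins with sites assigned to single isoforms, LRP8, EGFR and INSR fell and TNFRSF10A, TNFRSF10B and FN1 rose with DZNep, 6 of 9 against 42.7% of all tested genes, and 2 rather than 3 rose without Ctrl replicate 2, DZNep replicate 1 or either shEZH2 sample. LRP8, a receptor for reelin, was 52 and 66 in the controls, 21 and 30 with DZNep, and 32 and 32 with shEZH2, and fell by 1.26 ± 0.18 and 0.90 ± 0.18 (limma adjusted p = 0.0014 and 0.027). EGFR fell by 2.33 ± 0.22 and 1.46 ± 0.22 (limma adjusted p = 0.00026 and 0.014). INSR fell by 0.87 ± 0.21 with DZNep (limma adjusted p = 0.012). FN1 rose by 4.07 ± 0.24 and 1.30 ± 0.24 (limma adjusted p = 5.1e-05 and 0.022). With shEZH2 3 of the 9 were called, against 8.35% of all tested genes. The shEZH2 calls of LRP8, EGFR and FN1 were lost without either shEZH2 sample or with the pair counted as 1, and without Ctrl replicate 2 only 1 of the 2 lower calls passed.

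Enzymes of other kinds of O-linked glycosylation served as a comparison of function. Of 19 such genes 12 were tested. With DZNep TMTC2 (1.73 ± 0.25, limma adjusted p = 0.0013) and COLGALT1 (0.87 ± 0.23, limma adjusted p = 0.017) rose. TMTC4 (-0.95 ± 0.19, limma adjusted p = 0.0054) and XYLT2 (-0.83 ± 0.20, limma adjusted p = 0.013) fell. These are 4 of 12 against 42.7% of all tested genes. TMTC2 was 4 and 3 in the controls, 15 and 14 with DZNep, and 8 and 6 with shEZH2. It passed the filter only through its high DZNep samples, so its rise is a description. The genes called higher numbered 1 without Ctrl replicate 2, and 3 without Ctrl replicate 1 or DZNep replicate 2. Those called lower numbered 4 without Ctrl replicate 1. With shEZH2 none of the 12 passed in limma, with 3 at an unadjusted p under 0.05, where 8.35% of all tested genes were called.

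**Figure D4:**
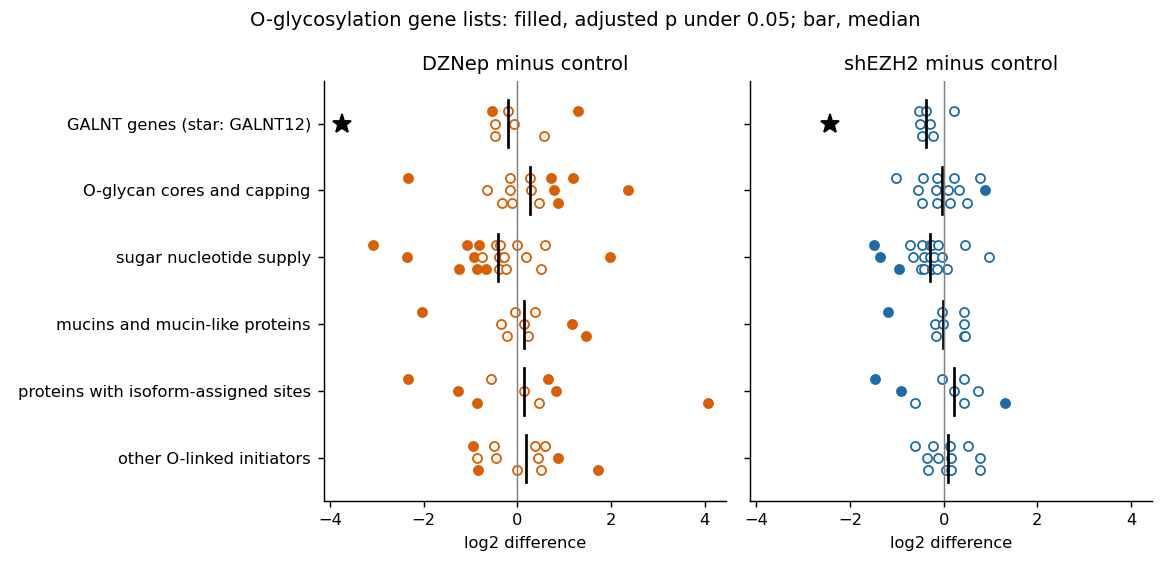
Log2 differences from control of the tested genes in each list, 1 point per gene, filled where the adjusted p was under 0.05, with a bar at the list's median and a star for GALNT12, which is left out of the median. With DZNep the sugar nucleotide list has its median at -0.42 and 8 filled points below 0, and the other 7 GALNT genes plotted lie between -0.54 and 1.29.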

How the data were processed

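The 6 samples of OVCAR8 RNA-Seq were grouped by their labels. Libraries were stranded and depleted of ribosomal RNA. Reads were trimmed (fastp), aligned to GRCh38 with GENCODE annotation (STAR) and quantified (RSEM) by the authors. Versions of STAR and RSEM are not given in the sources used here. The deposited values are a score, whole numbers that the authors scaled to a common total, so a planned count model could not be used. Values were scaled by TMM factors without weights (trimming 30% and 5%), and log2(value + 1) was fitted with limma 3.58.1 in R 4.3.3 (lmFit, eBayes with trend) over all 6 samples, for the 9671 of 14930 genes that reached 10 in 2 or more samples. Calls used a Benjamini-Hochberg adjusted p under 0.05 over all tested genes, two-sided. The scripts were tested on simulated data.

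The members and lists were chosen with earlier results of these data known. Named genes are the members, EZH2, C1GALT1, C1GALT1C1, MUC1 and MUC16, from each list up to 4 called genes with the largest change from control, and the 5 genes most like GALNT12. Other called genes of a list, the cell type markers, GALNT4, GALNTL6 and the genes that overlap members were named after their values were seen. Alternatives were other scalings, pseudocounts, filters, samples and call rules. The list counts under them were added after seeing the data. Promoters came from RefSeq. Some genes of the lists are not reported here and were left out of the list counts.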

Additional observations from a re-analysis of the deposited data

How the results depend on the processing

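Over 21 differences of the 7 tested members and 336 alternative values, 304 kept their direction and side of the threshold, 13 lost and 10 gained a call and 9 reversed. For GALNT12, which has no test, 4 values moved, all with the pseudocount (-4.14 and -2.36 with DZNep, -1.77 with shEZH2, and 0.58 between treatments). With DZNep, 2 members were called. The count was 1 (GALNT10) with only the groups compared, with the shEZH2 pair averaged into 1 sample, and by a fold rule (log2 difference beyond 1 either way, unadjusted P under 0.05), and 1 to 3 when 1 sample was left out. In the comparison of shEZH2 with DZNep, 2 were called, against 0 with the shEZH2 samples averaged, 1 by the fold rule and 0 to 2 when 1 sample was left out. With shEZH2 against control the count stayed at 0 in each of these settings. With the replicate number as a block, 5 members were called with DZNep (GALNT1, GALNT2, GALNT10, GALNT11 and GALNT14) and 2 with shEZH2 (GALNT2 and GALNT11), and no call was lost. The labels do not state that same-numbered samples were paired. Deviations of same-numbered samples from their group means correlated at 0.79 between Ctrl and DZNep over the tested genes. For shEZH2 the correlations were -0.02 with Ctrl and -0.04 with DZNep. Same-numbered Ctrl and DZNep samples thus varied together, which the main fit leaves out, and the reason was not tested. The block also moved the calls over all genes from 4129 to 5433 with DZNep, from 808 to 2775 with shEZH2 and from 912 to 2591 between treatments. With the shEZH2 samples averaged, calls fell to 39 and 73 in the comparisons that use them.

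Reversals were of small differences. On the values as deposited GALNT1 was -0.00988 for shEZH2 minus DZNep. When 1 sample was left out, the DZNep difference ranged from -0.45 to 0.042 for GALNT7 and from -0.25 to 0.11 for GALNT18. The difference between treatments then ranged from -0.37 to 0.39 for GALNT1, from -0.067 to 0.14 for GALNT2, from -0.32 to 0.15 for GALNT7 and from -0.25 to 0.15 for GALNT11. Where an alternative removes or averages samples, fewer samples carry the fit, and the lone sample of a group is assumed to vary like the others. For the other changes the cause was not tested. The depth is unknown, and rounding to whole numbers limits GALNT12 and GALNT6.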
